A study of Mustela putorius furo and Mus musculus with 4 samples.

Results

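Microglia of the embryonic mouse cortex were taken from a single-cell RNA table of 18120 cell barcodes and 17170 genes. The cells were chosen by measured values: a cell had to show 750 to 5000 detected genes and at least 1 unique molecular identifier (UMI, a tag that counts 1 captured RNA molecule) in at least 4 of the 6 genes Aif1, C1qa, C1qb, Cx3cr1, Csf1r and P2ry12. The rule selected 191 of the 17707 cells that lay within the gene limits, 82 of 10498 in the control library and 109 of 7209 in the Smo-cKO library. Both libraries were made from CD1 mouse cortex at embryonic day 18, with 1 library for each genotype and therefore no replicates. The control is labelled as a wild-type littermate, and the methods of the study give these littermates as Smo F/F, that is, with both Smo alleles floxed and no Cre. The Smo-cKO embryos carried hGFAP-Cre and Smo F/F. This Cre driver acts in cortical radial glia and the cells they produce, so Smo, the membrane transducer of sonic hedgehog (SHH) signals, was not deleted in microglia by design. In embryos of both genotypes a fluorescent cell dye had been injected into the lateral ventricle a day earlier, the cortex was dissociated with papain, and dye-labelled cells were sorted before droplet capture. How many embryos went into each library is not stated in the sources used here.

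Microglia are the resident macrophages of the brain. They descend from yolk sac progenitors, enter the neural tube early in gestation and divide there, and their survival depends on the colony stimulating factor 1 receptor. In the late embryonic cortex they engulf dying cells and progenitors, and part of them carry a growth-factor and lipid-handling programme (Spp1, Igf1, Gpnmb, Lpl) that is known from developing white matter. Monocytes are blood cells that share much of the macrophage programme but carry other surface and S100 genes, and macrophages of the meninges and vessels carry Mrc1, Pf4 and F13a1.

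With 1 library per genotype no test was possible, and embryo, preparation and library cannot be told apart from genotype. Levels are given as CPM, that is, the UMIs of a gene summed over a group of cells and divided by all UMIs of those cells, scaled to 1e6. All intervals are 95% intervals (exact Poisson for CPM, Clopper-Pearson for shares, Newcombe for differences of shares, conditional binomial for ratios), and they cover counting error only. Beside a share of 0 the share that 3 cells would make is given as the limit allowed, which is another bound than the Clopper-Pearson one. Gene counts past a fold use a ratio of 2 on the log2(CPM + 10) scale. The selected cells were deeper than the rest of the table, with medians of 9081.5 UMIs in control and 11581 in Smo-cKO against 4022.5 and 4788 in the other cells. No selected cell shared its barcode with the other library, although 28 barcodes occurred in both. Xist, the RNA that coats the inactive X chromosome in female cells, was detected in 20 of the 82 control cells and in 0 of the 109 Smo-cKO cells (which allows up to 2.75%), and in 16.8% and 0.0832% of all cells of the 2 libraries. Genes of the Y chromosome also had UMIs in 6 of these 20 control cells, and in 301 of the 1768 control cells of the whole library with Xist, while 25 of the 82 control and 33 of the 109 Smo-cKO cells had UMIs of neither kind. The libraries thus differed in Xist as well as in genotype, and the sex of each cell was not assigned.

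The genes that stood out most in the selected cells against all other cells were macrophage genes, as the rule requires for those among the 6 used. Spp1, which encodes the secreted protein osteopontin, had 7109 CPM in control and 14682 CPM in Smo-cKO cells against 11.4 and 88.1 CPM in the other cells. The complement genes C1qa, C1qb and C1qc, Ly86, the chemokine Ccl12, and the signalling adaptors Fcer1g and Tyrobp stood out with it. Fcrls, a receptor that is known to mark microglia within the macrophages, stood at 548 and 551 CPM against 0.256 and 0.370 CPM. Inhibitory-lineage genes (Dlx1, Dlx2, Dlx5, Gad1, Gad2 and Sp9) summed to 0 UMIs in the control cells and to 3 UMIs in the Smo-cKO cells. Hedgehog genes were near their floor as well, since none of the 11 listed pathway genes reached 20 UMIs in the selected cells and Gli1, the transcriptional readout of the pathway, had 0 UMIs. Smo itself was found in 0 of 82 control cells (up to 3.66% allowed) and in 5 of 109 Smo-cKO cells, with 1 UMI in each. Its level in the other cells was 7.92 CPM in control and 0.370 CPM in Smo-cKO, the lower level being in the library assigned to Smo-cKO.

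The label microglia held for only part of the cells. A list of 6 monocyte genes, among them Ly6c2, Ccr2, Plac8 and S100a4, split the selected cells, and the split fell differently in the libraries. No monocyte marker was found in 64 control and 57 Smo-cKO cells, and exactly 1 was found in 10 and 5. At least 2 were found in 8 of 82 control cells and in 47 of 109 Smo-cKO cells, which are shares 33.4 points apart (21.2 to 43.9). Cells at the edge of this class, with exactly 2 markers, numbered 4 and 10. Markers of border macrophages were also spread over the selected cells, with UMIs in 3 or more of the 8 such genes in the table in 46 of 82 control cells (56.1%, 44.7 to 67.0) and 78 of 109 Smo-cKO cells (71.6%, 62.1 to 79.8). In the cells with 0 or 1 monocyte marker these were 41 of 74 and 43 of 62, of which 33 and 40 also had a UMI of Fcrls, a microglial gene. The cells that reached 3 such markers were deeper, with medians of 10647 and 12274 UMIs against 8724.5 and 8746, and the part of depth in these shares was not tested. No new cell type name is given here, and the class is called the cells with 2 or more monocyte markers.

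**Figure D1:**
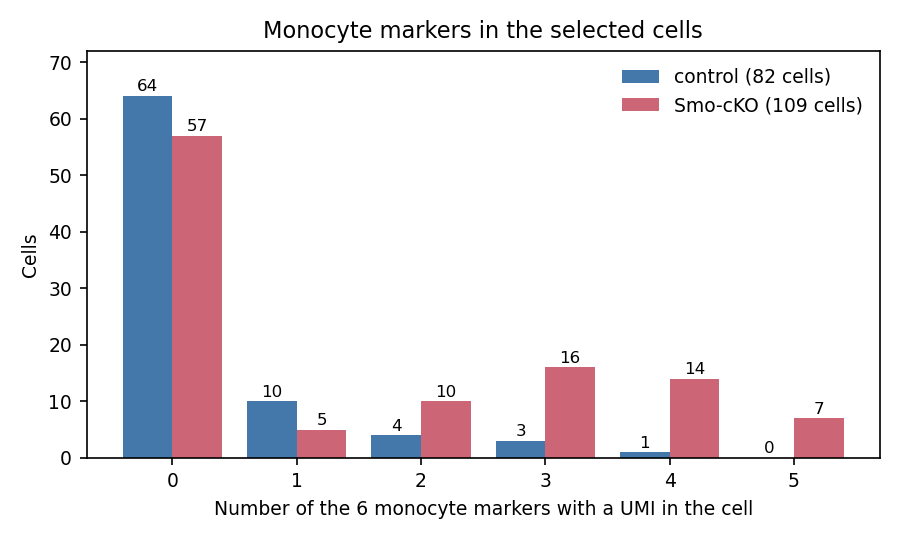
Number of selected cells (vertical axis) by how many of the 6 monocyte markers had a UMI in the cell (horizontal axis), for the control and the Smo-cKO library. Most cells of both libraries sit at 0, and a second group of 10, 16, 14 and 7 Smo-cKO cells sits at 2, 3, 4 and 5 markers, where the control library has 4, 3, 1 and 0 cells.

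The selected cells made up 0.781% of control cells (0.622 to 0.969) and 1.51% of Smo-cKO cells (1.24 to 1.82), 0.731 points apart (0.413 to 1.07). Most of this difference lay in the cells with 2 or more monocyte markers. They were 0.0762% of control cells (8 cells) and 0.652% of Smo-cKO cells (47 cells), a ratio of 8.56 (4.01 to 21.0). The cells with 0 or 1 monocyte marker were 0.705% of control cells (74 cells) and 0.860% of Smo-cKO cells (62 cells). Their difference of 0.155 points had an interval from -0.105 to 0.435, which includes 0 and covers counting error only. Outside the rule a further 4 control and 45 Smo-cKO cells had 2 or more monocyte markers. Just below the rule, 9 control and 35 Smo-cKO cells had 3 of the 6 genes, and just inside it 18 and 28 cells had 4, of which 5 and 22 carried 2 or more monocyte markers. The sort on an injected dye can set all of these shares, and its part in them was not tested.

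The Smo-cKO cells with 2 or more monocyte markers differed widely from the Smo-cKO cells with 0 or 1. Among 6407 genes with at least 20 UMIs in the Smo-cKO selected cells, 666 (10.4%) were at least 2-fold higher and 470 (7.34%) at least 2-fold lower, around a median log2 ratio of 0.04. The 6 monocyte genes were used to make the split and are no finding, and Ly6c2 was at 762 CPM against 0 by that choice. The other genes were not used and are given here as a description.

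Microglial genes were unevenly kept in these cells. Fcrls was detected in 57 of 62 Smo-cKO cells with 0 or 1 monocyte marker (91.9%) and in 6 of 47 with 2 or more (12.8%), with 746 and 24.3 CPM. In the control library Fcrls was found in 63 of 74 (85.1%) and in 0 of 8 cells (up to 37.5% allowed), and in the other cells of the 2 libraries in 0.0960% and 0.197%. The 8 control cells lay with the lowest cells of the other class, and 41 of the 47 Smo-cKO cells had no Fcrls UMI. Gpr34, a lysophosphatidylserine receptor of microglia, went the same way, from 176 to 4.87 CPM and from 72.6% to 4.26% of the Smo-cKO cells. Sall1, a transcription factor known to hold microglial identity, had 42 UMIs in the 62 cells and 2 UMIs in the 47. Siglech and Crybb1 were at 0 UMIs in the 47 cells, against 19 and 155.

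Other genes of the microglial list ran level or the opposite way. Trem2, the lipid-sensing receptor, stood at 886 CPM with 0 or 1 marker and 900.3 CPM with 2 or more, a ratio of 1.02 (0.899 to 1.15). Tyrobp, the adaptor through which Trem2 signals, had a ratio of 1.24 (1.16 to 1.33). The lysosomal protease Ctss was 2.74-fold higher (2.55 to 2.95). Tmem119, often used as a microglia-specific surface marker, was higher in the cells with 2 or more monocyte markers, at 153 against 27.9 CPM, a ratio of 5.50 (3.52 to 8.75), and was found in 30 of 47 against 21 of 62 cells. Over the 28 measured genes of this list, 3 were at least 2-fold higher and 11 at least 2-fold lower, with a median of -0.14, where 10.4% and 7.34% of all genes were that much higher and lower.

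Csf1, Igf1, Gas6 and Lpl were among the genes with the lowest ratios in these cells. Csf1, the colony stimulating factor itself, had 202 UMIs in the 62 Smo-cKO cells with 0 or 1 marker and 0 in the 47 with 2 or more, at least 24.9-fold lower when 3 UMIs over the group are set as the floor. Igf1, a growth factor for neurons and oligodendrocytes, had 195 and 0 UMIs, at least 24.0-fold lower by the same floor. Gas6, a bridge between dying cells and their receptors, had 340 UMIs and 1 UMI, and Lpl, the lipoprotein lipase, 437 UMIs and 1 UMI. The mannose receptor Mrc1, a marker of border macrophages, was also low here, at 34.1 against 237 CPM. Each of these genes was detected in 48.4% (Csf1) to 90.3% (Gas6) of the cells of one class and in at most 8 of the 47 cells of the other. The list of growth factor and survival receptors also holds the ligands Csf1 and Il34. Of its 17 measured genes 6 were at least 2-fold higher and 2 lower, and Csf1 itself was 1 of the 2. The list had a median of 0.79 and a sum of 2548 against 1628 CPM. Of all genes 10.4% were that much higher and 7.34% lower. Csf1, Igf1 and Lpl belong to the list of genes known from activated microglia of development, of which 3 of 17 were at least 2-fold higher and 6 lower (median -0.28), and Gas6 to that of complement and phagocytic receptors, with 3 of 16 higher and 2 lower (median 0.39).

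S100a6, Tgfbi and Ahnak were among the genes with the highest ratios in the same cells. S100a6, a calcium-binding protein, was detected in 47 of 47 Smo-cKO cells with 2 or more markers and in 7 of 62 of the others, with 2548 against 29.7 CPM, a ratio of 85.8 (60.7 to 125). In the control library it was detected in 8 of 8 and in 11 of 74 cells, and 11.0% and 18.2% of the other cells had a UMI of S100a6. Tgfbi, an extracellular matrix protein, was found in 47 of 47 and 16 of 62 Smo-cKO cells at 1187 and 44.1 CPM, and in 7 of 8 and 19 of 74 control cells. Ahnak, a large membrane-linked scaffold protein, had 121 UMIs against 0 and was at least 109-fold higher by the floor of 3 UMIs. The chemokine Cxcl2, which draws neutrophils, was 18.1-fold higher (15.1 to 21.9), with 58.6% of the UMIs of the lower class in 1 cell, and Cxcr4, a receptor that guides leukocytes, was 17.8-fold higher (10.6 to 31.7). They are single genes, and over the 17 measured chemokines and cytokines 5 were at least 2-fold higher and 2 lower, with a median of 0.27 and a sum of 5400 against 4690 CPM, where the shares over all genes were 10.4% and 7.34%. Ms4a7 and F13a1, which are listed as border macrophage markers, stood at 601 and 701 CPM against 27.0 and 89.0 CPM, but of the 6 measured genes of that list 2 were at least 2-fold higher and 2 lower, with a median of -0.19 and the same shares over all genes.

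Thbs1 and Spp1 were detected in larger shares of the Smo-cKO than of the control cells of this class. Thbs1, the matrix glycoprotein thrombospondin 1, was found in 37 of 47 and in 2 of 8, at 586 CPM (515 to 665) and 47.1 CPM (9.71 to 138). Spp1 was found in 43 of 47 and in 2 of 8 cells, at 5458 and 785 CPM. With 8 cells in the control class the intervals are wide. Ecm1, a secreted matrix protein, was in 43 of 47 and 7 of 8 cells.

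**Figure D2:**
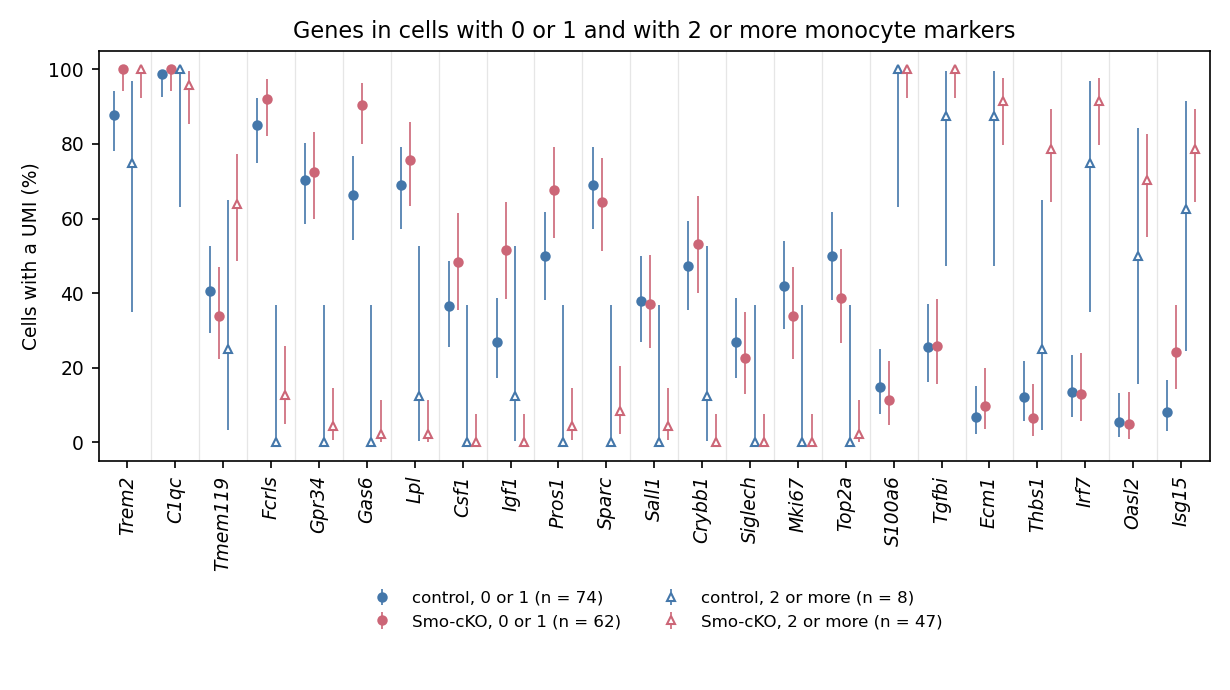
Share of cells with at least 1 UMI (vertical axis, in percent) per gene, in control and Smo-cKO cells with 0 or 1 (filled circles) and with 2 or more monocyte markers (open triangles), with Clopper-Pearson intervals. Fcrls, Gpr34, Gas6 and Lpl are high in the circles, S100a6, Tgfbi, Ecm1 and Irf7 in the triangles, and Trem2 and C1qc are high in all 4 groups.

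The interferon list was higher in this class throughout. All 14 genes were at least 2-fold higher in the Smo-cKO cells with 2 or more monocyte markers than in those with 0 or 1, with a median log2 ratio of 2.96. Irf7, the transcription factor that amplifies the interferon response, was found in 43 of 47 against 8 of 62 cells, at 796 and 49.5 CPM. Ifitm3, which blocks the entry of viruses and belongs to a family of similar genes that reads may not tell apart, stood at 4825 and 636 CPM. In the 8 control cells the levels were also high, with Irf7 at 377 CPM and Ifitm3 at 3923 CPM. All 5 measured MHC genes were at least 2-fold higher too (median 2.51), among them H2-D1 at 1652 against 274 CPM and Cd74, the invariant chain of antigen presentation, at 384 against 36.0 CPM. Immediate early genes, which papain dissociation is known to induce, were at least 2-fold higher in 16 of 25 and at least 2-fold lower in 2 (median 1.31, with 10.4% and 7.34% of all genes past these limits), with Fos at 1343 against 172 CPM. The part of dissociation in this result was not tested.

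Genes of the G2 and M phases were nearly absent from the cells with 2 or more monocyte markers. None of these cells had UMIs in 3 or more of 16 G2 and M phase genes, 0 of 8 in control (up to 37.5% allowed) and 0 of 47 in Smo-cKO (up to 6.38%). Among the cells with 0 or 1 marker, 44 of 74 control cells (59.5%, 47.4 to 70.7) and 26 of 62 Smo-cKO cells (41.9%, 29.5 to 55.2) did so. The proliferation marker Mki67 had 152 and 116 UMIs in these and 0 UMIs in the cells with 2 or more markers. The cells that pass this count were deep, with medians of 13830 and 23181.5 UMIs, whereas the cells with 2 or more monocyte markers had medians of 6798.5 and 8351. Among cells with no more than 8351 UMIs, 13 of 33 control and 2 of 11 Smo-cKO cells with 0 or 1 marker had 3 or more of the genes, against 0 of 5 and 0 of 24 with 2 or more markers. Genes of the S phase were still found in 38 of 47 Smo-cKO and 7 of 8 control cells with 2 or more markers, and in Smo-cKO they summed to 406 against 869 CPM, with 8 of 15 genes at least 2-fold lower (7.34% of all genes). The list of D cyclins and their kinases, which also holds the E cyclin Ccne1 and the kinase inhibitors Cdkn1c and Cdkn2c, summed to 499 and 505 CPM. Of 8 measured genes 1 was at least 2-fold higher and 1 lower, where 10.4% and 7.34% of all genes were. Intervals lay above 1 for 3 genes and below 1 for 3.

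**Figure D3:**
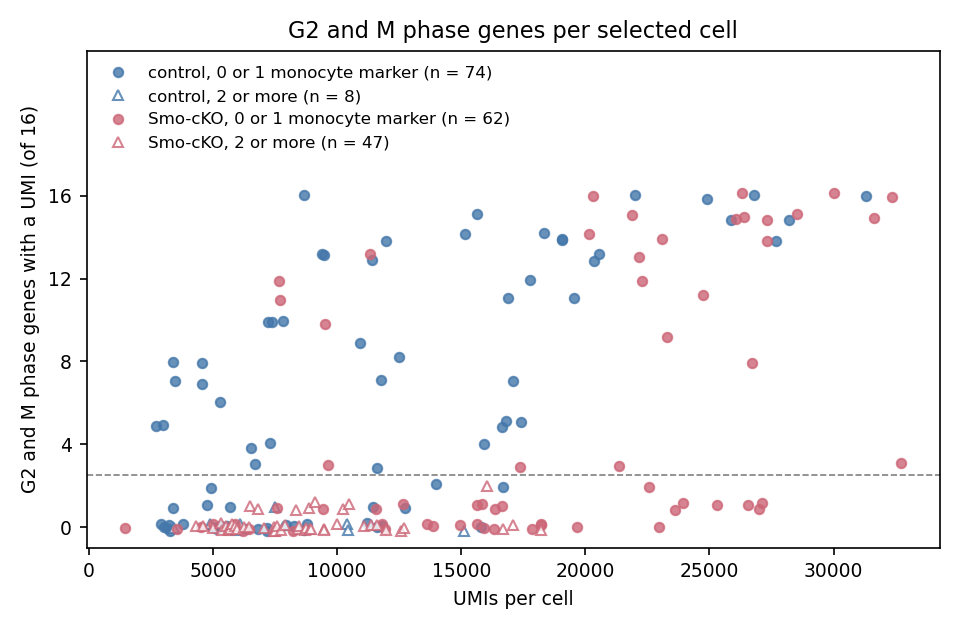
Number of the 16 G2 and M phase genes with a UMI in a cell (vertical axis, points shifted slightly so that they do not hide each other) against the UMIs of the cell (horizontal axis), with a dashed line below 3 genes. Open triangles, the 8 control and 47 Smo-cKO cells with 2 or more monocyte markers, all lie below the line, while filled circles of both libraries reach 16 genes.

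Because the class with 2 or more monocyte markers was 8 cells in one library and 47 in the other, comparisons of all selected cells carry it. Over all selected cells, 141 of 5083 genes with at least 50 UMIs (2.77%) were at least 2-fold higher in Smo-cKO and 53 (1.04%) at least 2-fold lower. With at least 20 UMIs per gene the numbers were 181 (2.3%) and 85 (1.08%) of 7872 genes, and the median over all genes was -0.05. Genes high in the class were among those that led this comparison, such as Irf7 (log2 ratio 1.98), S100a6 (1.94) and Ifitm3 (1.80), and so were Lilrb4a (2.07) and Bst2 (1.74). The interferon list had a median of 1.30, with 11 of 14 genes at least 2-fold higher. When the cells with 2 or more monocyte markers were left out, a choice made after the data had been seen, S100a6 was at -0.44, Lilrb4a at 2.22 and Bst2 at 1.33, and the interferon median was 0.57 over 9 measured genes.

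In the cells with 0 or 1 monocyte marker, 74 in control and 62 in Smo-cKO, 47 of 4275 genes with at least 50 UMIs (1.1%) were at least 2-fold higher in Smo-cKO and 45 (1.05%) at least 2-fold lower. With at least 20 UMIs the numbers were 68 (0.965%) and 94 (1.33%) of 7047 genes around a median of -0.07. The Smo-cKO cells were deeper, with a median of 18031.5 UMIs against 9438.5. For some genes, shares of cells are therefore also given after thinning each cell to 3000 UMIs, which 71 of 74 and 61 of 62 cells reach. The class was set by marker count alone, and 10 of its control and 5 of its Smo-cKO cells had exactly 1 marker. Of these, 5 and 3 had a UMI of Fcrls, 6 and 2 of S100a6, and 8 and 2 of Tgfbi. Without them 64 and 57 cells were left. Of 3993 genes with at least 50 UMIs, 62 were then at least 2-fold higher in Smo-cKO and 40 at least 2-fold lower.

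The list of genes known from activated microglia of development had the highest median of the microglial lists in this comparison. It stood at 0.84 over 18 measured genes, 6 of which (Spp1, Gpnmb, Igf1, Fabp5, Lgals1 and Plin2) were at least 2-fold higher and none lower, where 0.965% of all genes were at least 2-fold higher. The 2-fold limit was lost under 4 of 12 other settings for Fabp5 and for Lgals1, under 2 for Spp1 and for Igf1, and under 0 for Plin2. The interval of the ratio lay above 1 for 16 of the 18 and below 1 for 0, where it lay above 1 for 6.63% and below 1 for 12% of all 7047 genes. Border macrophage markers were higher in the Smo-cKO cells of this class as well, at a sum of 693 CPM in control and 1088 CPM in Smo-cKO, with 2 of 6 measured genes at least 2-fold higher, none lower, and a median of 0.51. The sum per cell ranged from 0 to 3351 CPM in control and from 0 to 12548 CPM in Smo-cKO. Without cells of 3 or more such markers, which leaves 33 control and 19 Smo-cKO cells, the median of the list of activated microglia was 1.09 over 16 genes. Spp1 was at 7586 CPM (7401 to 7774) in control and 18091 CPM (17842 to 18343) in Smo-cKO, a ratio of 2.38 (2.32 to 2.45), and its median per cell was 3365 and 9681 CPM. Cells without Spp1 occurred in both libraries and the values per cell overlapped over most of their range. In the other cells Spp1 was also higher in Smo-cKO, at 88.1 against 11.4 CPM.

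Plin2, which coats lipid droplets, was at 234 CPM (203 to 269) in control and 647 CPM (600.2 to 696) in Smo-cKO, a ratio of 2.76 (2.36 to 3.25). It was detected in 62 of 74 and in 61 of 62 cells, and after thinning in 51.7% and 76.5%. In the cells with 2 or more monocyte markers of Smo-cKO it stood at 659 CPM, level with the 647 CPM of the others. The other cells had 23.1 and 34.6 CPM, with a UMI of Plin2 in 9.94% and 14.6%. Igf1 was at 54.4 and 175 CPM, a ratio of 3.23 (2.33 to 4.55), and Apoe, the lipid carrier, at 4039 and 7192 CPM, a ratio of 1.78 (1.71 to 1.85). Among cells with 0 to 2 G2 and M phase genes these ratios were 1.17 (0.794 to 1.77) and 1.10 (1.05 to 1.16). Among the rest they were 10.2 (5.31 to 22.0) and 2.16 (2.03 to 2.30). Gpnmb, a lysosomal glycoprotein, had a ratio of 4.23, but 1 control cell held 52.0% of the control UMIs. The lysosomal proteases Ctsb, Ctsd and Ctsl had ratios of 1.39, 1.23 and 1.75.

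Other genes led the comparison by the size of the ratio. Lilrb4a, an inhibitory immunoglobulin-like receptor with a near-identical neighbour Lilr4b, had the highest ratio, 15.4 against 108 CPM or 7.02 (3.96 to 13.6). It was detected in 9 of 74 control cells and in 40 of 62 Smo-cKO cells, and after thinning in 4.46% and 26.8%, with a UMI in 0.0864% and 0.620% of the other cells. Pmp22, a membrane protein known from myelin, was 5.22-fold higher (3.03 to 9.67), and Fabp3, a fatty acid carrier, 5.54-fold (2.51 to 14.5). They rest on 15 and 7 control UMIs, and 1 cell held 40% of those of Pmp22. Rab7b, a small GTPase of late endosomes, was 3.51-fold higher (2.32 to 5.48), and Sdc4, a heparan sulphate proteoglycan, 2.65-fold (1.99 to 3.58). Pmp22 was at 44.8 and 61.0 CPM in the other cells, and the part of free RNA in its level was not tested, whereas Rab7b was at 0.256 and 1.18 CPM there.

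Cdkn1a, which encodes the cell cycle inhibitor p21, was at 76.8 CPM (59.3 to 97.9) in control and 240 CPM (212 to 271) in Smo-cKO cells with 0 or 1 monocyte marker, a ratio of 3.13 (2.38 to 4.16). It was detected in 25 of 74 and in 43 of 62 cells, and after thinning in 19.2% and 37.5%. The Smo-cKO cells with 2 or more markers had 231 CPM. The other cells of the table showed the same direction, with 12.5 CPM in control and 52.3 CPM in Smo-cKO and a UMI in 2.28% and 9.13%. The list of 9 measured p53 genes had a median of 0.16. The 1 gene at least 2-fold higher (0.965% of all genes) was Cdkn1a itself, and Trp53 had a ratio of 0.728 (0.513 to 1.03). Ccng1, a cyclin-like p53 target, was at 21.3 and 47.7 CPM, a ratio of 2.24 (1.29 to 4.06) that the 10 CPM added for the count holds under 2-fold.

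**Figure D4:**
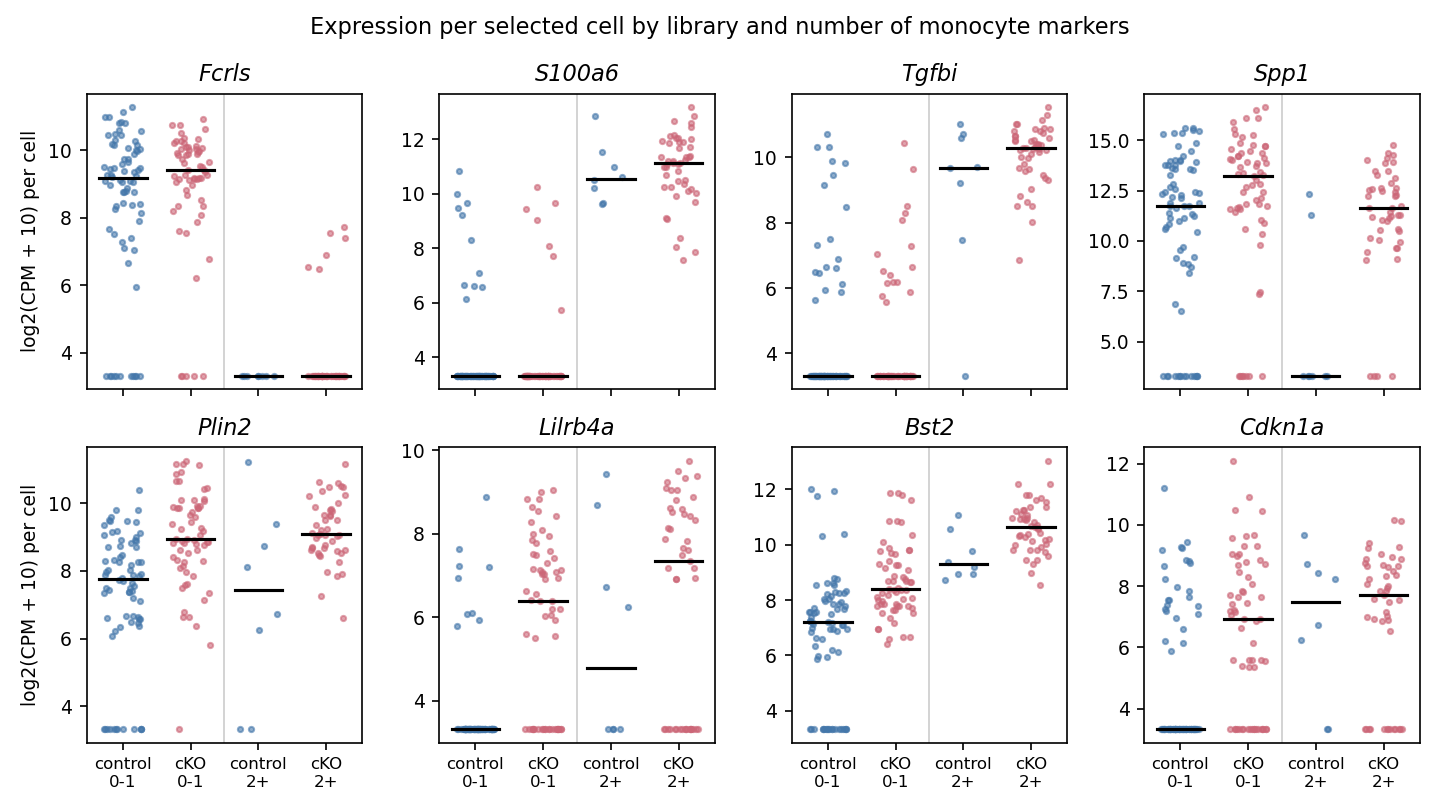
Expression per selected cell, as log2(CPM + 10) on the vertical axis, for 8 genes, with cells split by library and by 0 or 1 against 2 or more monocyte markers, and a bar at each median. Fcrls, S100a6 and Tgfbi separate the marker classes, while Spp1, Plin2, Lilrb4a, Bst2 and Cdkn1a are shifted up in Smo-cKO within the 0 or 1 class (for Spp1 the median is 9681 against 3365 CPM), with wide overlap.

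The interferon genes were less even in this class than between the classes. Bst2, also called tetherin, was at 210 against 546 CPM, a ratio of 2.60 (2.19 to 3.08), and was found in 55 of 74 and 62 of 62 cells. Ifitm3 had a ratio of 2.64 (2.25 to 3.10) and Isg15, a ubiquitin-like modifier, 2.41 (1.58 to 3.76), where 1 control cell held 46.7% of the control UMIs. Irf7 was at 31.9 and 49.5 CPM with a ratio of 1.55 whose interval, 0.961 to 2.56, includes 1. The other cells were higher in Smo-cKO too, with Bst2 at 69.3 and 182 CPM, Ifitm3 at 170 and 411 CPM, and Isg15 at 21.7 and 57.5 CPM. Free RNA from these cells as a part of the result was not tested. Of 9 measured interferon genes 3 were at least 2-fold higher and none lower, where 0.965% and 1.33% of all genes were. Among cells with 0 to 2 G2 and M phase genes, 0 of 9 were at least 2-fold higher, with a median of -0.060. Of 1874 genes with at least 50 UMIs in those cells, 45 were that much higher and 62 that much lower. Among cells with 3 or more G2 and M phase genes, 3 of 5 interferon genes were at least 2-fold higher, with a median of 1.23. The share over all genes in these cells is not given here. The ratio of Bst2 was 1.97 (1.55 to 2.52) in the former and 2.44 (1.90 to 3.15) in the latter.

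Genes of microglial identity lay near the middle. The median of the 29 measured genes was 0.18, with none at least 2-fold higher and 1 at least 2-fold lower, and intervals above 1 for 11 and below 1 for 7 (6.63% and 12% of all genes). The 1 gene was Tmem119, at 67.4 CPM (51.0 to 87.3) in control and 27.9 CPM (18.9 to 39.6) in Smo-cKO, a ratio of 0.414 (0.258 to 0.652). The 2-fold limit was lost under 7 of 12 other settings, and among cells with 0 to 2 G2 and M phase genes the ratio was 0.652 (0.288 to 1.54). It was detected in 30 of 74 and 21 of 62 cells, and after thinning in 16.5% and 9.91%, against 0.192% and 0.493% of the other cells. Sall1 had a ratio of 0.524 (0.345 to 0.789), Gpr34 0.609 (0.502 to 0.737) and the organic anion transporter Slco2b1 0.476 (0.302 to 0.738). The opposite side held Trem2 at 1.58 (1.42 to 1.77) and Fcrls at 1.26 (1.13 to 1.41). Among cells with 3 or more G2 and M phase genes the median of the list was -0.11, with 0 of 29 genes at least 2-fold higher and 3 lower. Among the rest it was 0.24, with 2 of 28 higher and 1 lower. Of 1874 genes with at least 50 UMIs in the rest, 45 were at least 2-fold higher and 62 lower. The share over all genes in the former cells is not given here. Of the genes the rule used, P2ry12, the ADP receptor that steers microglial processes, was at 102.8 and 56.7 CPM and Csf1r at 498 and 377 CPM, as a description.

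Metabolic and lysosomal lists shifted by less than 2-fold. Glycolysis and hypoxia genes had a median of 0.39, with intervals above 1 for 11 of 14 and below 1 for 0, where 6.63% and 12% of all genes had such intervals. Lysosomal genes had a median of 0.29 with intervals above 1 for 12 of 22 and below 1 for 1. Neither list had a gene past 2-fold. Among cells with 3 or more G2 and M phase genes the lysosomal median was 0.23, with 1 of 22 genes at least 2-fold higher. Among the rest it was 0.043, with 0 of 22 higher. Of 1874 genes with at least 50 UMIs in the rest, 45 were at least 2-fold higher. The share over all genes in the former cells is not given here. Metallothionein Mt2, which binds zinc, was 2.59-fold higher (1.93 to 3.53), and its level in the other cells was higher than in the selected ones, 390 CPM in control and 577 CPM in Smo-cKO. Chemokines had a median of -0.02, with Ccl4 at 1033 and 718 CPM and Ccl3 at 628 and 814 CPM. The cytokine Il1b was at 81.6 and 38.7 CPM, a ratio of 0.474 (0.316 to 0.704), but 1 Smo-cKO cell held 55.8% of the Smo-cKO UMIs.

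Genes of the G2 and M phases were lower in the Smo-cKO cells with 0 or 1 monocyte marker. The G2 and M phase list had a median of -0.53, with intervals below 1 for 10 of 16 genes (12% of all genes) and above 1 for 0 (6.63%), and 1 gene, Cenpf, a kinetochore protein, past 2-fold, which it no longer was under 4 of 12 other settings. Mki67 was at 180 and 104 CPM, a ratio of 0.581 (0.452 to 0.744), and Top2a, the topoisomerase of dividing cells, at 282 and 193 CPM, a ratio of 0.681 (0.564 to 0.823). The share of cells with 3 or more such genes differed by -17.5 percentage points (-33.0 to -0.692). The Smo-cKO cells were deeper, and the part of depth in this share was not tested. The S phase list had a median of -0.40, with none of 15 genes past 2-fold. Ccnd1 and Cdk6, the D cyclin and kinase that start the cycle, had ratios of 1.11 (0.789 to 1.58) and 0.837 (0.560 to 1.25). Their list also holds Ccne1 and kinase inhibitors. Its 9 measured genes had a median of -0.28, with intervals below 1 for 2 and above 1 for 0. In the other cells of the table, 21.8% of control and 11.9% of Smo-cKO cells had 3 or more G2 and M phase genes.

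**Figure D5:**
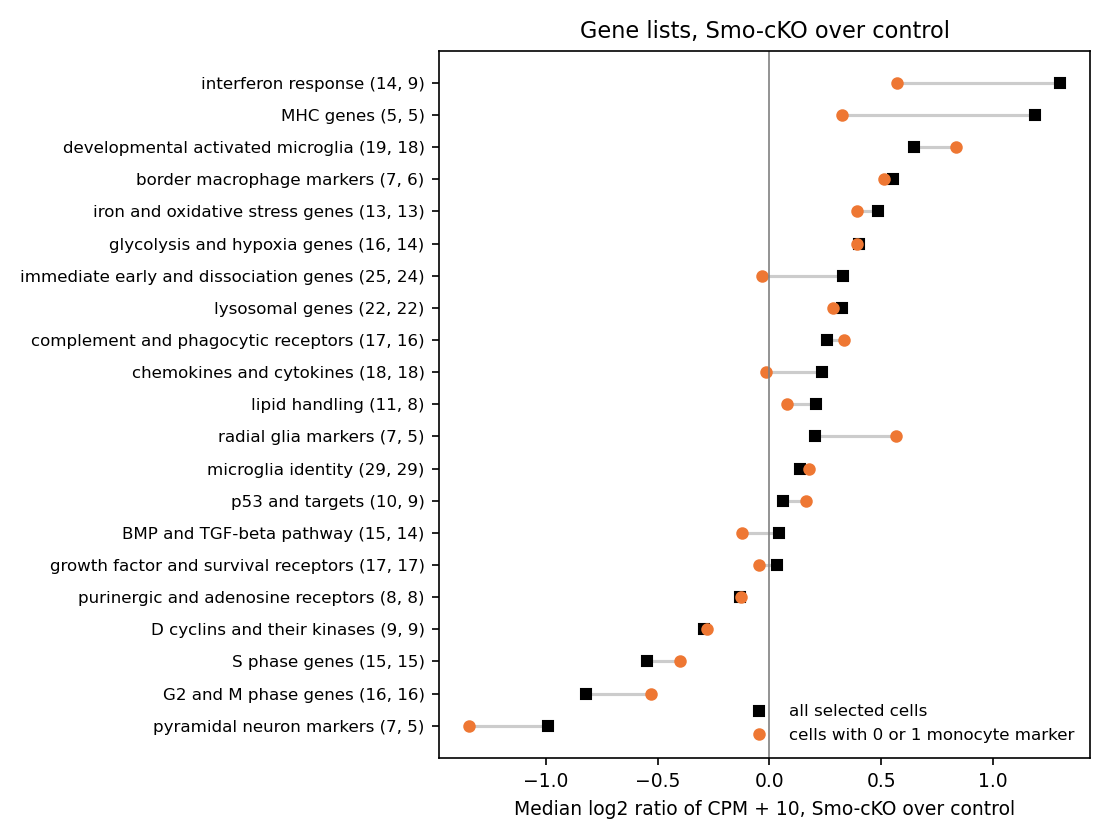
Median log2 ratio of CPM + 10, Smo-cKO over control (horizontal axis), of 21 gene lists (vertical axis, with the number of measured genes for all selected cells and for cells with 0 or 1 monocyte marker). The interferon median moves from 1.30 in all selected cells (squares) to 0.57 without the cells with 2 or more monocyte markers (circles), while the list of activated microglia of development moves from 0.65 to 0.84.

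Since the libraries differed in these shares, the leading genes were also compared within cells that do and do not show G2 and M phase genes. Among cells with 3 or more G2 and M phase genes (44 control and 26 Smo-cKO) the list of activated microglia of development had a median of 0.88, and among the rest (30 and 36) a median of 0.57. Depth differed between the libraries in both, with medians of 13830 and 23181.5 UMIs in the first and 6578 and 15651.5 in the second. The part of depth in these splits was not tested. Igf1 was 10.2-fold higher (5.31 to 22.0) in the first, at 16.1 and 164 CPM, and 1.17-fold (0.794 to 1.77) in the second, at 160 and 187 CPM. Spp1 did the reverse, with ratios of 1.49 (1.44 to 1.55) in the first and 3.66 (3.47 to 3.86) in the second. Fabp5, a fatty acid carrier also abundant in the other cells of the table, had ratios of 2.91 and 1.28. Lilrb4a (9.05 and 4.29), Plin2 (2.08 and 3.14), Rab7b (3.66 and 3.80) and Cdkn1a (2.11 and 2.46) were higher in Smo-cKO in both. The interferon median was 1.23 over 5 measured genes in the first and -0.060 over 9 in the second.

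Across cells, Spp1 and Fabp5 ran together. Spearman's rho of their CPM was 0.67 over the 62 Smo-cKO cells with 0 or 1 monocyte marker and 0.34 over the 74 control cells, as a description of cells that share a library. Spp1 and the UMIs per cell had rho of 0.18 and -0.01. In 50 of 74 control cells Spp1 was at 1000 CPM or more, and 47 of these 50 also had a UMI of Fcrls. Mrc1 had a UMI in 29 of the 50.

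Genes of neurons were low in the selected cells and differed between the libraries. All 10 listed pyramidal neuron markers together stood at 199 CPM in control and 55.8 CPM in Smo-cKO cells with 0 or 1 monocyte marker, with a range per cell of 0 to 2332 and 0 to 1074 CPM, and at 2112 and 2437 CPM in the other cells. A UMI of any of them was found in 23 of 74 and in 22 of 62 cells, and Bcl11b was at 0 in Smo-cKO. Of the 5 measured genes of the list 3 were at least 2-fold lower (1.33% of all genes), with a median of -1.34. Without the cell that held most of these UMIs in each library the sums were 160 and 34.0 CPM. Tubb2b, a tubulin, and Nfix, a nuclear factor, were among the 15 named genes with the lowest ratios in this class. Tubb2b was at 163 and 68.4 CPM, against 1866 and 2464 CPM in the other cells. Nfix was at 76.8 and 22.5 CPM. They are single genes. When the 10% of cells with the largest share of neuronal and glial marker UMIs were left out, 28 genes were at least 2-fold lower in place of 45. Erythroid markers summed to 9.46 and 36.9 CPM. Radial glia markers summed to 181 and 294 CPM, but 1 Smo-cKO cell held 59.3% of the Smo-cKO UMIs, and without the top cell of each library the sums were 165 and 122 CPM, in the opposite order. Endothelial and mural markers summed to 21.3 and 14.4 CPM, and to 12.1 and 12.9 CPM without the top cells. Leaving these cells out was chosen after the data had been seen. Prm1, which marks the Cre transgene, had 0 UMIs in control cells and was found in 7 of 62 Smo-cKO cells with 0 or 1 marker, in 3 of 47 with 2 or more and in 32.7% of the other Smo-cKO cells.

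In the mouse GRCm38 assembly, which is the same build as mm10, the genes the comparisons turn on lie apart from each other, with Spp1 at chr5:104435118-104441050, Lilrb4a at chr10:51490956-51496611, Plin2 at chr4:86648386-86670060 and Cdkn1a at chr17:29090976-29100727. Fcrls at chr3:87250758-87263738 and S100a6 at chr3:90612882-90624181 share a chromosome. All are annotated as protein coding, and the droplet method counts molecules of the gene as a whole, mostly from its 3′ end.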

How the data were processed

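Cortical cells of 1 control and 1 Smo-cKO library (10x Genomics Chromium) were measured by single-cell RNA sequencing. The authors deposited raw UMI counts per gene and cell in one table, and the submitters' processing notes name Cell Ranger, StringTie, Seurat 3 and the build mm10, with no role. The table holds 10524 barcodes with one suffix and 7596 with the other. These are the cell numbers that the methods of the study state for control and Smo-cKO, and the suffixes were assigned on that ground. The methods give 750 to 5000 genes as a filter, and 1 control and 354 Smo-cKO barcodes below it and 25 and 33 above it were left out. No doublet caller was run, and whether doublets had been removed is not stated in the sources used here. The table has no columns of the authors' comparisons. The ferret table was not used here.

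Counts were summed over cells per library with Python 3.11.15, numpy 2.4.6, pandas 2.3.3 and scipy 1.17.1, and figures were drawn with matplotlib 3.10.9. Ratios of CPM had 10 CPM added to each side where log2 values or 2-fold counts are given, genes needed 50 UMIs in the cells compared (20 for lists), and the interval computation was tested on simulated data. Beside the genes of 29 lists, the rule for named genes took the 15 highest and 15 lowest ratios with a UMI in at least 10% of cells of the higher group and no cell with over 20% of its UMIs, and the 25 highest against all other cells. The members and the lists were chosen with earlier results of these data known. Total counts were 51657121 UMIs in control and 42057782 in Smo-cKO. Alternatives changed the marker rule, the UMI limits, the pseudocount, depth and cell classes. Leaving out cells with 2 or more monocyte markers was chosen after seeing the data. Symbols were matched to GENCODE M21 (16568 of 17170). Lyve1, Cd163, Ngp, Cd3e, Cd3g, Nkg7, Clec7a, Il10 and H2-M2 are not analysed here, and some other listed genes are not reported here.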

Additional observations from a re-analysis of the deposited data

How the results depend on the processing

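No paired analysis was possible because each genotype has 1 library, and for the same reason no library could be left out. Of the 159 values recomputed for shares, counts of genes and list medians, 128 stayed within their counting error or within 1.5 times of the count, and 31 did not. Of 514 values of single genes and of the other lists, 471 kept their direction and their side of the 2-fold limit or, for lists, stayed within 1.5 times. The share of selected cells was 0.610% in control and 1.12% in Smo-cKO with at least 5 of the 6 genes, 2.00% in Smo-cKO with at least 3, 0.343% and 0.430% without cells of 3 or more border macrophage markers (which leaves 36 and 31 cells), and 0.860% in Smo-cKO without cells of 2 or more monocyte markers.

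Of all selected cells, the 141 higher genes of 5083 tested became 47 of 4275 without the cells of 2 or more monocyte markers. They became 77 of 3049 without cells of 3 or more G2 and M phase genes. With cells thinned to 3000 UMIs they were 83 of 1561, and with at least 200 UMIs per gene 65 of 1650. The 53 lower genes became 82 of 5415 with at least 3 of the 6 rule genes and 132 of 5083 with 1 CPM added. They were 11 of 1561 thinned, 85 of 7872 with at least 20 and 8 of 1650 with at least 200 UMIs. The monocyte median of 1.59 became 2.35 with at least 5 rule genes, 2.73 without border macrophage markers, 2.19 with 1 CPM added and 0.087 without cells of 2 or more monocyte markers, and the interferon median of 1.30 became 2.48 and 0.57 under the second and the last. Without the cells of 2 or more monocyte markers S100a6 was at -0.44.

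In cells with 0 or 1 monocyte marker, the 47 higher genes of 4275 tested became 79 of 4275 with 1 CPM added. They were 10 of 1086 thinned and 18 of 1333 with at least 200 UMIs. The 45 lower genes became 28 of 3940 without the 10% of cells with most neuronal and glial marker RNA. They were 89 of 4275 with 1 CPM added, 7 of 1086 thinned, and 94 of 7047 and 5 of 1333 with at least 20 and 200 UMIs. The interferon median of 0.57 became 1.75 without border macrophage markers and -0.060 without cells of 3 or more G2 and M phase genes. Thinning, the limit of 200 UMIs and leaving out cells left fewer genes to count, while the limit of 20 UMIs left more. The cause of the other shifts and of the moved medians was not tested. Spp1 ranged from 0.85 to 1.87 over 12 settings, Plin2 from 1.33 to 1.62, Lilrb4a from 1.76 to 2.73 and Igf1 from 0.22 to 1.91. Tmem119 ranged from -1.24 to -0.49 and lost the 2-fold limit under 7 of the 12. With 74 and 62 cells, a gene near 10 CPM rests on about 10 UMIs, and its ratio is poorly determined.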

Other observations

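Id3, an inhibitor of helix-loop-helix factors, and Hopx, a homeodomain-only protein, are genes of radial glia that were also counted in the selected cells. In Smo-cKO, Id3 was found in 18 of 47 cells with 2 or more monocyte markers and in 6 of 62 with 0 or 1, at 109 and 13.5 CPM. The 62 cells were deeper, and the part of depth in these shares was not tested. Hopx was found in 27 of 47 and in 10 of 62, at 328 and 28.8 CPM. In the 62 cells 1 cell held 66.7% of the Id3 and 1 cell 59.4% of the Hopx UMIs. The other Smo-cKO cells had 204 CPM of Id3 and 436 CPM of Hopx. In control, Hopx was found in 4 of 8 and in 8 of 74 cells. The radial glia markers of the list summed to 496 CPM in the 47 and to 294 CPM in the 62 Smo-cKO cells, against 10485 CPM in the other cells, with Ttyh1 at 0 in the 47. In each of these classes 1 cell held much of the sum (51.5% and 59.3% of the UMIs), and without these cells the sums were 252 and 122 CPM.

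Apoc1, an apolipoprotein, was 7.35-fold higher (6.45 to 8.38) in the Smo-cKO cells with 2 or more monocyte markers, at 2088 against 284 CPM, while Apoe was level at 6519 and 7192 CPM. Cd63 and Cd9, membrane tetraspanins, ran the other way, at 195 and 53.5 CPM against 1028 and 812 CPM. S100a8 and the 3 other neutrophil and lymphoid markers in the table summed to 336 CPM in the 47 cells and to 11.7 CPM in the 62, and were found in 9 and 6 cells. Of the 138 UMIs in the 47 cells, 1 cell held 82, and without it the sum was 140 CPM.

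Hspa1a, a heat shock gene with a near-identical copy, had 59 UMIs in the Smo-cKO cells with 0 or 1 monocyte marker, and 1 cell held 96.6% of them.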
